A study of Mus musculus with 24 samples.

Results

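The genes described here encode the chains of the basement membrane and the integrins through which cells bind it. They were taken from the gene count table by symbol: protein-coding genes that start with Lama, Lamb or Lamc and a digit, with Col4a, or with Itga or Itgb and a digit or letter (Itgb1bp and Itgbl genes left out), together with Nid1, Nid2, Hspg2 and Agrn. This gave 49 of the 27179 genes in the table. Itgb3bp, a kinetochore protein that shares only its name with the integrins, was left out of every count, so 48 genes remained: 5 laminin alpha, 3 laminin beta and 3 laminin gamma chains, 6 collagen IV chains, 4 genes for nidogens, perlecan and agrin, 18 integrin alpha and 9 integrin beta subunits. After the filter on low counts 47 of them were tested. Itgad, a leukocyte integrin, was the gene left out.

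The study measured RNA by bulk RNA-seq in sorted epithelial cells from the mammary glands of pubertal mice, from 12 groups with 2 libraries each, 24 in all. Ducts and terminal end buds (TEBs) had been microdissected apart. TEBs are the structures at the tips of the ducts that lead their growth. Lineage-negative EpCAM+ cells were sorted into a basal gate with high CD29 and a luminal gate with low CD29, and the luminal gate was split by a reporter. The Elf5-rtTA-IRES-GFP mice gave luminal GFP-positive and GFP-negative cells, the PR-cre/Rosa26-LSL-eYFP mice gave luminal YFP-positive and YFP-negative cells, and both gave basal cells, each from ducts and from TEBs. In the first model GFP follows the Elf5 gene. In the second, Cre driven by the progesterone receptor gene switches on YFP for good, so YFP also marks descendants of cells that once expressed it. No library came from mice without a reporter. Basal cells were not divided further, and in TEBs they include the cap cells. Whether replicate libraries come from different mice is not stated in the labels, and p-values therefore reflect only the variation among these samples, which may be technical.

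The basement membrane is a thin sheet of matrix under the epithelium, built from a laminin network and a collagen IV network that nidogens, perlecan and agrin tie together. A laminin is a trimer of an alpha, a beta and a gamma chain, and its number names the 3 chains in that order. Cells hold on to laminin mainly through the integrins alpha3beta1, alpha6beta1 and alpha6beta4, the last of which anchors hemidesmosomes. In the mammary gland the basal (myoepithelial) cells rest on the basement membrane and make much of it, while most luminal cells face the lumen and touch it only in part.

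The sorted populations were checked against their defining genes. Elf5 stood between 410.1 and 1657 CPM (counts per 1000000, on library sizes scaled by TMM) in GFP-positive and YFP-negative libraries, and between 15.0 and 87.3 CPM in GFP-negative and YFP-positive libraries. Pgr, the progesterone receptor gene, had the reverse pattern, between 13.2 and 73.3 CPM in the former and between 202 and 635 CPM in the latter. The former gates are called Elf5-high luminal and the latter Pgr-high luminal below, with 4 libraries each per tissue. Itgb1 is the gene of CD29. It ran from 1269 to 1574 CPM in basal libraries and from 498 to 713 CPM in luminal ones. Because CD29 set the gates, this difference is a description, and Itgb1 is left out of the counts of members that differ between basal and luminal cells. Library totals ran from 31264622 to 52495208 counts, at which 3 counts correspond to between 0.0571 and 0.0960 CPM. Intervals and floors of this kind cover counting error only.

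In a pair of luminal libraries, keratinocyte genes stood far above their replicates, and some members were higher there as well. Krt1 stood at 670 CPM in GFP-negative duct replicate 2 against 1.85 CPM in its replicate, and at 96.8 CPM in YFP-negative TEB replicate 2 against 9.03 CPM. YFP-negative TEB replicate 1 carried such transcripts too, with Krt5 at 60.3 and Krt10 at 27.5 CPM. The lowest Elf5-high TEB library had 2.85 CPM of Krt10 and 0.0965 CPM of Krt1. Fits called without the libraries with keratinocyte transcripts leave out the pair only and keep that replicate. Lama3 had 64.4 CPM in GFP-negative duct replicate 2 against 1.74 CPM in its replicate, and Lamb3 84.7 against 13.7 CPM. In YFP-negative TEB replicate 2, Lama3 had 31.3 CPM against 13.7 CPM in its replicate, while Lama1 had 3.48 against 5.11 CPM, Lamb1 74.5 against 77.6 CPM and Lama4 126 against 142 CPM. Acta2, a contractile gene of basal cells, was at 10.6 CPM in both GFP-negative duct libraries. Only some of the results that change without the pair of libraries are given both ways, and others also gained or lost their call.

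Values of a gene in a population are listed in a fixed order: the Elf5 model replicates 1 and 2, then the PR-cre model replicates 1 and 2. Levels are given as mean ± SD over these 4 libraries (2 groups of 2), and log2 fold changes as the fitted value ± SE from edgeR's quasi-likelihood test, with p-values adjusted by the Benjamini-Hochberg method over all 18109 genes tested and a call at an adjusted p under 0.05. As cells were measured in bulk, fewer cells of a type and less RNA per cell cannot be told apart.

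Promoter sequence is shown for the pairs of neighbouring members whose changes the results turn on: Col4a5 and Col4a6, which start back to back on the X chromosome and moved together, and Itga1 and Itga2, which lie side by side on chromosome 13 and moved in opposite directions in basal TEBs. The windows lie before the start site, are written 5′ to 3′ on the gene's strand, and were taken from RefSeq (GRCm38.p6); of the 49 genes, 33 have such a window. The start sites of Col4a5 and Col4a6 are separated by 1274 bases, and neither window overlaps the other.
Col4a6, chrX:141474096-141474326, minus strand: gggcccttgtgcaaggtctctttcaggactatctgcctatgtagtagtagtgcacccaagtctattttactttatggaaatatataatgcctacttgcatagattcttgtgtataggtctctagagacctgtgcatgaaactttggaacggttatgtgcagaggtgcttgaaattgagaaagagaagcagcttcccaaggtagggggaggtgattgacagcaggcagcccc
Col4a5, chrX:141475169-141475369, plus strand: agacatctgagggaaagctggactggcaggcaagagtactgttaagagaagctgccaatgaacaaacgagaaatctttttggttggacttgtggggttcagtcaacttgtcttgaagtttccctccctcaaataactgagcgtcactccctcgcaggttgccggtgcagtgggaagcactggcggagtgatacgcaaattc
Itga1, chr13:115101965-115102214, minus strand: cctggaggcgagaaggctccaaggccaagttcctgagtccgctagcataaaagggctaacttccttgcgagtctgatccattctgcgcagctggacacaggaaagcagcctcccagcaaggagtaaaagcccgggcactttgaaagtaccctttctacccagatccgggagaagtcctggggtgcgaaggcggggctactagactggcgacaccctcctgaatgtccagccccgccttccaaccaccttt
Itga2, chr13:114932101-114932350, minus strand: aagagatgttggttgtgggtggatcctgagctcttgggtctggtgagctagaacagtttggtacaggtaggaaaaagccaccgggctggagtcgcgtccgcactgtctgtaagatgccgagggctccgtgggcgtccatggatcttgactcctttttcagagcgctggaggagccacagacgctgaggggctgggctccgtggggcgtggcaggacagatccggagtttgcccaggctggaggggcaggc
Lama5, chr2:180225905-180226109, minus strand: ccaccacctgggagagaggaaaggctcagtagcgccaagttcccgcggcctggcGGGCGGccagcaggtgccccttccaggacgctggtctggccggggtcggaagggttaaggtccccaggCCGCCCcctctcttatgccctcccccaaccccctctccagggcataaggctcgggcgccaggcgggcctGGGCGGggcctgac
The Lama5 window is shown because Lama5 was the laminin alpha chain of Pgr-high luminal cells. Capitals in it mark 3 matches to GGGCGG, the letters bound by SP factors, counted on both strands, and 32.7% of all 32851 windows hold such a match. None of the 4 windows of Col4a5, Col4a6, Itga1 and Itga2 holds GGGCGG or the AP-1 letters TGANTCA (held by 6.7% of all windows) on either strand. The E-box letters CANCTG are held by 44.8% of all windows and occur once each in the Col4a5 and Itga1 windows and not in those of Col4a6 and Itga2. The shares of all windows were counted over 250 bases before the start. The windows shown were cut to bases outside exons, which leaves 201 bases for Col4a5, 231 for Col4a6 and 205 for Lama5. The last 49, 19 and 45 of the 250 bases are thus left out in these genes, and matches there were not counted. A match describes letters, not binding.

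Basal cells held most of the transcripts of the basement membrane, in ducts and in TEBs. In ducts 36 of 46 tested members were higher in basal than in luminal cells, 2 were lower and 8 were not called. Over all genes tested 33.5% were higher and 29.8% lower, 63.3% in all. The members' median log2 fold change was 2.33, against 0.02 over all genes. In TEBs 32 were higher, 5 lower and 9 not called, where 30.8% of all genes were higher and 28% lower, and the median was 1.97 against 0.04. Luminal here is the mean of Elf5-high and Pgr-high cells, so a call does not place basal cells above both. Elf5-high ducts had a median of 99.9% of the basal duct mean for Lama4, 109% for Itgb3, 123% for Itgb8 and 130% for Itga8. For Col4a1 and Lama1 it was 1.50% and 1.42%. In ducts all 6 collagen IV chains and all 3 laminin beta chains were higher in basal cells, along with 4 of 5 laminin alpha chains and all 4 of the nidogen, perlecan and agrin genes. Of 14 endothelial and pericyte and 14 fibroblast markers, 13 and 11 were also higher in basal ducts, and 1 of each lower. In TEBs 5 and 12 were higher, and 3 and 0 lower. The endothelial and pericyte sum was nonetheless higher in luminal ducts (219 to 417 CPM) than in basal ducts (36.1 to 168 CPM). The part of such cells in the members' differences was not tested.

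**Figure D1:**
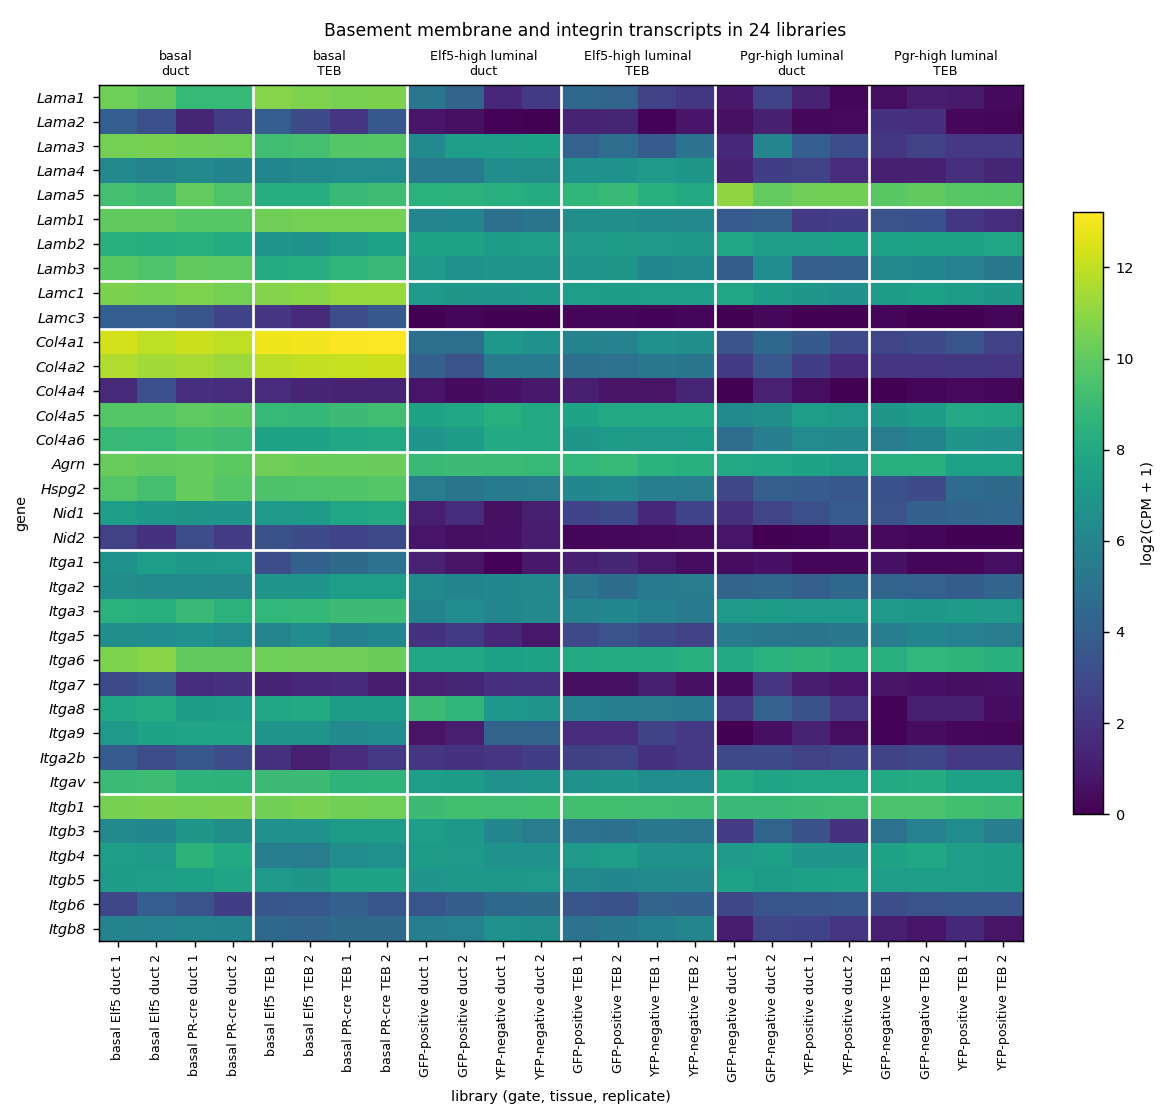
Levels of the 35 members described by library in the 24 libraries as log2(CPM + 1), with genes in rows by role and libraries in columns by gate, tissue and replicate. The 8 basal libraries form a block of high values for collagen IV and most laminin chains, while Lama5, Lamb2 and Itgb4 are also high in luminal libraries.

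Collagen IV was the most abundant part of the basal set. Col4a1, which with Col4a2 forms the collagen IV found in nearly all basement membranes, had 5181, 3933, 4551 and 3946 CPM in basal ducts and 7682, 8076, 9139 and 9582 CPM in basal TEBs. Luminal libraries had 5.14 to 129.6 CPM, so the groups lay far apart (log2 fold change in ducts 7.41 ± 0.22, adjusted p = 3.63e-13). Col4a2 had 3249, 2667, 2888 and 2376 CPM in basal ducts and 3848, 4105, 4238 and 4628 CPM in basal TEBs, with 2.10 to 41.4 CPM in luminal libraries. The annotated spans of Col4a1 and Col4a2 overlap by 85 bases, and reads there cannot be assigned by strand in these unstranded libraries. Col4a5 had 864, 861, 976 and 913 CPM and Col4a6 473, 467, 591 and 555 CPM in basal ducts. These chains, which pair in the collagen IV of smooth muscle and some epithelia, were the members of the family that luminal cells also carried, with 76.6 to 312 CPM for Col4a5 and 25.0 to 267 CPM for Col4a6. Col4a3 and Col4a4, the chains of kidney and lung, stayed at or under 3.95 and 8.39 CPM in every library.

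Among the laminin alpha chains, Lama1 and Lama3 marked basal cells and Lama5 did not. Lama1, the chain of laminin-111, had 1245, 1012, 457 and 469 CPM in basal ducts and 1802, 1618, 1521 and 1586 CPM in basal TEBs. In Elf5-high luminal cells it had 36.1, 18.8, 1.92 and 3.82 CPM in ducts and 21.1, 18.3, 5.11 and 3.48 CPM in TEBs, and Pgr-high libraries had 0.150 to 5.24 CPM. Basal and luminal libraries did not overlap (log2 fold change in ducts 7.61 ± 0.44, adjusted p = 2.23e-09). Lama3, the chain of laminin-332 in hemidesmosomes, had 1413, 1452, 1339.6 and 1251 CPM in basal ducts and 572, 636, 843 and 884 CPM in basal TEBs, against at most 181 CPM in luminal libraries. Lama5, the chain of laminin-511 and laminin-521, had 623, 559, 1043 and 759 CPM in basal ducts and 2121, 1068, 1300.1 and 1378 CPM in Pgr-high ducts. Elf5-high ducts had 348, 359, 319 and 289 CPM, so the luminal populations lay on either side of basal ducts, Elf5-high below every basal library and Pgr-high above. Against the mean of both, basal ducts were not called different (log2 fold change 0.08 ± 0.13, adjusted p = 0.657). In TEBs it was lower in basal cells (-0.53 ± 0.14, adjusted p = 0.00348), a direction held by the Elf5 model and not by the PR-cre model alone (-1.14 (adjusted p = 0.000162) in the Elf5 model and 0.09 (adjusted p = 0.761) in the PR-cre model). Lama2, the chain of muscle and nerve laminin, had 14.7, 8.42, 1.61 and 3.91 CPM in basal ducts, 14.3, 7.08, 3.27 and 11.0 CPM in basal TEBs and at most 2.84 CPM in luminal libraries.

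The laminin beta and gamma chains followed the same division. Lamb1 had 1017, 1029, 897 and 897 CPM in basal ducts and 1324, 1411, 1424 and 1414 CPM in basal TEBs, against at most 94.5 CPM in luminal libraries. Lamb3, the partner of Lama3 in laminin-332, had 906, 766, 1038 and 986 CPM in basal ducts and 293, 299, 417 and 498 CPM in basal TEBs, above every luminal library (13.7 to 138 CPM). Lamb2 was the beta chain least confined to basal cells, with 337, 297, 314 and 284 CPM in basal ducts against 159 to 228 CPM in luminal ducts. In TEBs its direction turned, with 118, 110.4, 136 and 186 CPM in basal cells and 133 to 223 CPM in luminal cells (log2 fold change -0.34 ± 0.09, adjusted p = 0.00264). Within the PR-cre model alone that TEB difference was not called, and the value in each model was -0.60 (adjusted p = 0.000575) in the Elf5 model and -0.07 (adjusted p = 0.661) in the PR-cre model. Lamc1, the gamma chain of most laminins, had 1573, 1416, 1645 and 1397 CPM in basal ducts and 109 to 246 CPM in luminal libraries. Lamc3 had 14.3, 14.3, 9.88 and 5.23 CPM in basal ducts, 3.19, 1.98, 7.67 and 11.8 CPM in basal TEBs and at most 0.224 CPM in luminal libraries.

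**Figure D2:**
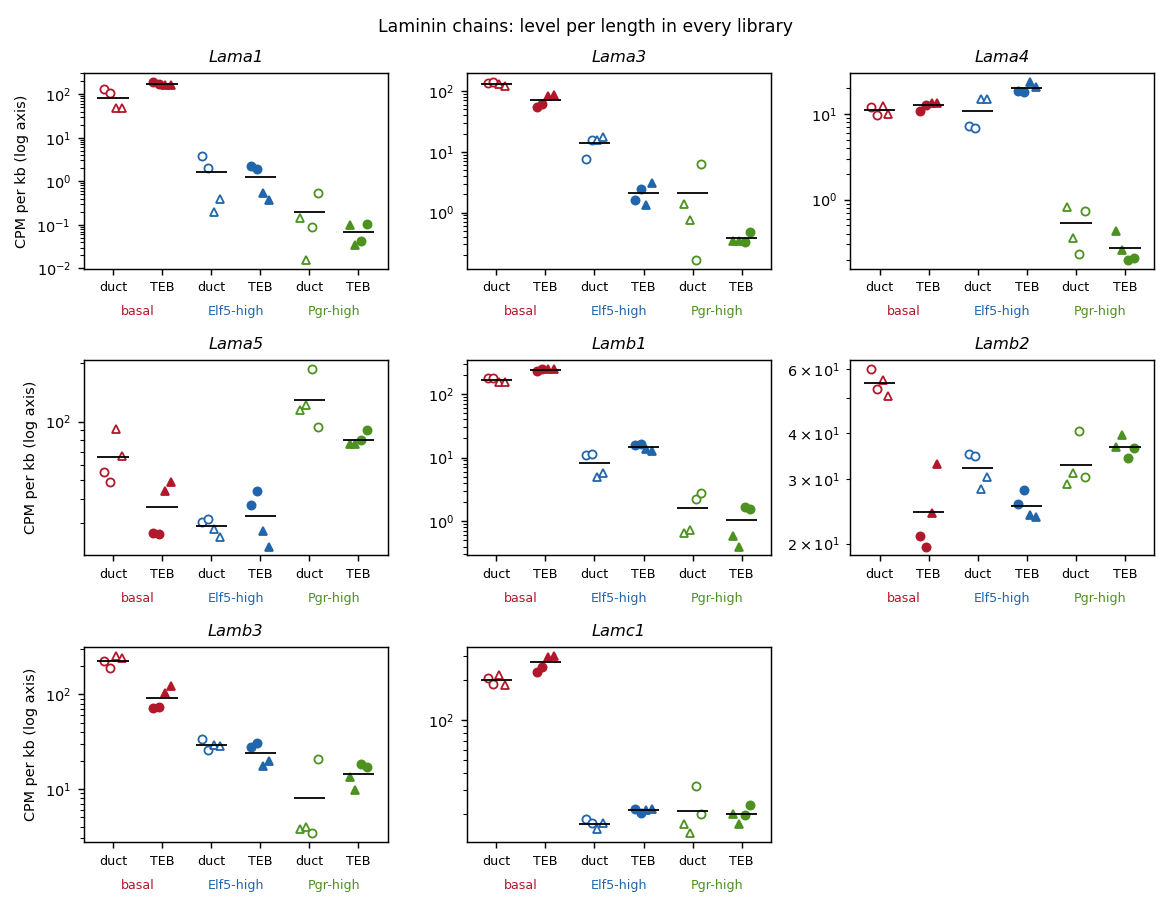
Level per length (CPM per kb of exon, log axis) of 8 laminin chains in every library; circles are the Elf5 model and triangles the PR-cre model, open points ducts and filled points TEBs, and the line is the mean of 4 libraries. In basal cells Lama1 and Lamb1 lie higher in TEBs than in ducts and Lama3 and Lamb3 lie lower.

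The genes that tie the networks together were also led by basal cells. Hspg2 (perlecan) had 828, 649.8, 1103 and 851 CPM in basal ducts and 729.8, 758, 795 and 868 CPM in basal TEBs, against 5.93 to 78.5 CPM in luminal libraries. Agrn (agrin), a heparan sulfate proteoglycan that binds laminin, had 1133, 1025, 1112 and 948 CPM in basal ducts and 1332, 1222, 1128 and 1193 CPM in basal TEBs, and luminal libraries still had 169 to 534 CPM. Nid1 (nidogen 1), the link between laminin and collagen IV, had 163, 132, 127 and 120.2 CPM in basal ducts, 137, 145, 219 and 250.1 CPM in basal TEBs and 0.486 to 19.3 CPM in luminal libraries. Nid2 lay at 2.89 to 8.73 CPM in basal and at most 1.07 CPM in luminal libraries. All groups of Hspg2, Agrn and Nid1 were separate between basal and luminal cells of the same tissue.

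The integrin alpha subunits differed more among themselves. Of 17 tested, 11 were higher in basal ducts than in luminal ducts and 6 were not called. Over all genes 33.5% were higher and 29.8% lower. Itga6, a partner in both laminin receptors alpha6beta1 and alpha6beta4, was the most abundant alpha subunit of basal cells, with 1648, 1872, 1007 and 1007 CPM in basal ducts and 1251, 1316, 1326 and 1232 CPM in basal TEBs, against 181 to 426 CPM in luminal libraries. Itga3, the other main laminin-binding alpha subunit, had 348, 325, 492 and 365 CPM in basal ducts and 428, 452, 545 and 535 CPM in basal TEBs, against 42.2 to 153 CPM in luminal libraries. These differences were log2 2.31 ± 0.08 and 1.91 ± 0.09 in ducts, with no overlap between basal and luminal libraries. Itga1, a collagen receptor that favours collagen IV, was nearly absent from luminal cells, with 107, 161, 131 and 136 CPM in basal ducts, 8.08, 16.1, 23.2 and 31.5 CPM in basal TEBs and at most 1.69 CPM in luminal libraries. Itga9, a receptor for tenascin and other ligands, had 141, 205, 208 and 208 CPM in basal ducts, 118, 113, 80.5 and 88.0 CPM in basal TEBs and at most 17.7 CPM in luminal libraries. Itgav, the partner of several beta subunits in receptors for RGD ligands, had 514, 559, 390.5 and 380.3 CPM in basal ducts, 533, 532, 389 and 403 CPM in basal TEBs and 85.7 to 289 CPM in luminal libraries.

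Of 8 integrin beta subunits tested (Itgb1 left out), 5 were higher and 2 lower in basal ducts, and 4 were higher and 2 lower in basal TEBs. Over all genes 33.5% were higher and 29.8% lower in ducts, and 30.8% and 28% in TEBs. Itgb4 was higher in basal ducts and lower in basal TEBs than in luminal cells. Itgb4, which pairs only with Itga6 and anchors the cell through hemidesmosomes, had 164, 144, 375 and 274 CPM in basal ducts and 49.8, 48.4, 90.0 and 98.5 CPM in basal TEBs. Luminal cells had 108 to 174 CPM in ducts and 107 to 242 CPM in TEBs. In ducts the basal and luminal ranges overlapped, and the log2 fold change was 0.77 ± 0.09, adjusted p = 4.52e-07. That difference was called in the PR-cre model and not in the Elf5 model (0.04 (adjusted p = 0.83) in the Elf5 model and 1.51 (adjusted p = 1.44e-08) in the PR-cre model). In TEBs every luminal library lay above every basal one (log2 fold change -1.18 ± 0.09, adjusted p = 6.08e-09). Itgb3, a partner of Itgav, was higher in basal ducts at 1.72 ± 0.33, adjusted p = 0.000379, with 80.6, 69.4, 125 and 91.9 CPM there, though 2 GFP-positive libraries reached 132 and 162 CPM. Itgb5 ranged from 71.6 to 207 CPM in all 24 libraries. Itgb6, which activates TGF-beta, was lower in basal ducts at -0.54 ± 0.23, adjusted p = 0.0475, at 4.51 to 22.8 CPM in all libraries. That call was lost in the Elf5 model alone, where the value was 0.052 on the log2 scale, and without basal Elf5-model duct replicate 1, basal PR-cre duct replicate 2, GFP-positive duct replicate 2 or GFP-negative duct replicate 2 (adjusted p between 0.05 and 0.172). Itgb2l, a subunit of neutrophils, was the other member lower in basal ducts, with no counts in any basal library and 0.131 to 2.04 CPM in luminal libraries.

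**Figure D3:**
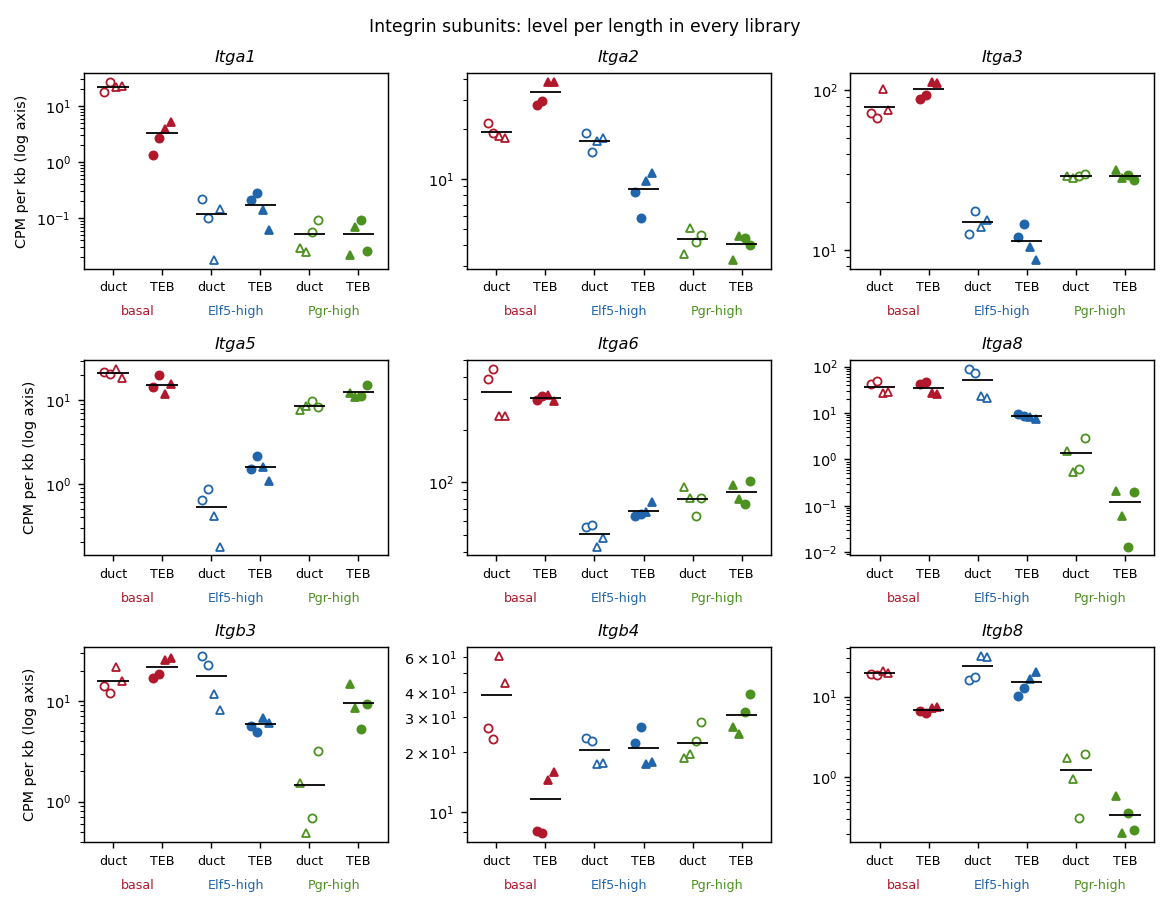
Level per length (CPM per kb of exon, log axis) of 9 integrin subunits in every library, with symbols as for the laminin chains. Itga1 and Itgb4 lie lower in basal TEBs than in basal ducts, Itga8 lies lower in luminal TEBs than in luminal ducts, and Itga5 lies lowest in Elf5-high cells.

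Some members of nearly every kind differed between the 2 luminal populations. In ducts 17 of 47 members were higher in Elf5-high than in Pgr-high cells, 9 were lower and 21 were not called, where 24.6% of all genes were higher and 23.3% lower. The total called in ducts was not far above the 47.9% of all genes called in either direction. In TEBs 19 were higher, 12 lower and 16 not called, with 24.6% and 23% over all genes. The medians were 0.77 in ducts and 0.40 in TEBs, against 0.00 and 0.06 over all genes. Elf5-high cells held more Lama3, Lama4, Lamb1, Itga2, Itga8 and Itgb8, and Pgr-high cells more Lama5, Nid1, Itga3 and Itga5.

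Lama4 and Lama5 divided the luminal cells. Lama4, the alpha chain known from vessels, fat and muscle, had 43.6, 41.0, 90.1 and 90.2 CPM in Elf5-high ducts and 111, 109, 142 and 126 CPM in Elf5-high TEBs. Pgr-high cells had 1.40, 4.49, 4.93 and 2.16 CPM in ducts and 1.20, 1.27, 2.58 and 1.54 CPM in TEBs, far below every Elf5-high library (log2 fold change 4.25 ± 0.30, adjusted p = 2.13e-08 in ducts and 6.24 ± 0.33, adjusted p = 1.41e-09 in TEBs). In basal cells it had 73.2, 59.3, 74.2 and 60.8 CPM in ducts and 65.1, 76.8, 81.0 and 81.2 CPM in TEBs, so Elf5-high TEBs held the highest levels of all. Lama5 ran the other way, with 348, 359, 319 and 289 CPM in Elf5-high ducts and 422, 502, 310.2 and 259 CPM in Elf5-high TEBs, below 2121, 1068, 1300.1 and 1378 CPM in Pgr-high ducts and 911, 1029, 870.1 and 868 CPM in Pgr-high TEBs. No library of the populations overlapped (log2 fold change -2.16 ± 0.16, adjusted p = 1.36e-08 in ducts and -1.34 ± 0.16, adjusted p = 2.66e-06 in TEBs). Lama3 had 77.8, 164, 162 and 181 CPM in Elf5-high ducts and 1.74, 64.4, 14.4 and 7.89 CPM in Pgr-high ducts, where the highest value is the library with keratinocyte transcripts. Its difference in ducts was 2.91 ± 0.68, adjusted p = 0.00304. Within the Elf5 model, which holds that library, it was not called (1.87 (adjusted p = 0.136) in the Elf5 model and 3.94 (adjusted p = 0.00715) in the PR-cre model).

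The other chains of luminal cells followed these divisions in part. Lamb1 had 63.1, 65.7, 28.3 and 32.7 CPM in Elf5-high ducts and 12.8, 15.9, 3.78 and 4.20 CPM in Pgr-high ducts, and 92.4, 94.5, 77.6 and 74.5 against 9.58, 8.90, 3.37 and 2.31 CPM in TEBs (log2 fold change 4.04 ± 0.11, adjusted p = 1.4e-13). The populations did not overlap within a tissue. Nid1 was lower in Elf5-high cells, with 1.16, 2.28, 0.486 and 1.13 CPM against 2.69, 5.86, 8.26 and 13.3 CPM in ducts (-2.56 ± 0.39, adjusted p = 7.47e-05). Col4a6 was higher in Elf5-high cells, with 119.8, 157, 267 and 258 CPM against 25.0, 50.3, 83.1 and 74.2 CPM in Pgr-high ducts (1.81 ± 0.16, adjusted p = 1.42e-07), and its neighbour Col4a5 had 194, 246, 312 and 259 against 76.6, 95.6, 161 and 141 CPM (1.14 ± 0.11, adjusted p = 1.41e-07). Agrn had 482, 534, 510.2 and 466 CPM in Elf5-high ducts and 254, 229, 199 and 169 CPM in Pgr-high ducts (1.24 ± 0.08, adjusted p = 1.35e-09).

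Several integrins separated the luminal populations more sharply than they separated basal from luminal cells as a whole. Itga5, the fibronectin receptor subunit, had 2.82, 3.83, 1.78 and 0.776 CPM in Elf5-high ducts against 42.6, 36.0, 33.4 and 37.9 CPM in Pgr-high ducts (log2 fold change -4.17 ± 0.23, adjusted p = 7.14e-10), and 6.64, 9.46, 6.90 and 4.80 against 48.8, 67.3, 53.5 and 47.9 CPM in TEBs. Basal cells had 94.6, 89.5, 104 and 81.6 CPM in ducts and 63.0, 87.0, 51.6 and 67.9 CPM in TEBs. Itga8, a receptor subunit for nephronectin, had 512, 419, 132 and 119 CPM in Elf5-high ducts and 3.61, 16.9, 8.66 and 3.12 CPM in Pgr-high ducts (4.95 ± 0.51, adjusted p = 2.11e-06). The GFP-positive ducts stood above the YFP-negative ones, and both above every Pgr-high library. In basal cells Itga8 had 245, 284, 154 and 164 CPM in ducts and 239, 269, 158 and 148 CPM in TEBs. Itgb8, which with Itgav binds latent TGF-beta, had 50.1, 53.8, 99.2 and 95.1 CPM in Elf5-high ducts and 0.980, 5.97, 5.40 and 2.91 CPM in Pgr-high ducts (4.22 ± 0.42, adjusted p = 1.1e-06). Itga2, a collagen-binding alpha subunit, had 79.1, 61.0, 71.0 and 74.0 CPM in Elf5-high ducts and 17.5, 19.3, 14.8 and 21.4 CPM in Pgr-high ducts (1.97 ± 0.14, adjusted p = 4.74e-09). Itga3 had 60.9, 85.7, 67.3 and 74.9 CPM in Elf5-high ducts and 142, 145, 140.2 and 138 CPM in Pgr-high ducts (-0.97 ± 0.11, adjusted p = 1.3e-06). For Itga3 the difference between basal and luminal ducts was the larger. Itgb3 had 162, 132, 68.3 and 47.1 CPM in Elf5-high ducts and 4.0, 18.3, 8.89 and 2.79 CPM in Pgr-high ducts (3.51 ± 0.44, adjusted p = 1.29e-05), and its populations were not called different in TEBs (-0.66 ± 0.39, adjusted p = 0.191).

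In basal cells the laminin and collagen chains changed in opposite directions between ducts and TEBs. Basal TEBs held more Lama1, Lamb1, Lamc1 and Col4a1, and less Lama5, Lamb2, Lamb3, Col4a5 and Col4a6, than basal ducts. Of 47 members, 7 were higher in basal TEBs, 14 lower and 26 not called, where 20.9% of all genes were higher and 22.8% lower. The median log2 fold change of the members was -0.23, against -0.04 over all genes. Basal cell markers were lower in basal TEBs as well: of 10, 8 fell and 0 rose, with a median of -2.09. Their summed level was 33537 to 37257 CPM in basal ducts and 6712 to 14793 CPM in basal TEBs. Whether the members' falls are part of that wider fall was not tested.

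Among the chains that were higher in basal TEBs, Lamb1 rose from 960.1 ± 73.0 to 1393 ± 46.3 CPM (log2 fold change 0.54 ± 0.09, adjusted p = 0.000129), with every TEB library above every duct library. Lamc1 rose from 1508 ± 121 to 2049 ± 266 CPM (0.43 ± 0.12, adjusted p = 0.00711), also without overlap. Col4a1 rose from 4403 ± 594 to 8619.6 ± 889 CPM (0.96 ± 0.23, adjusted p = 0.00314). Col4a2, its partner, had 2795 ± 368 CPM in ducts and 4205 ± 325 CPM in TEBs, without overlap, and its test was not called (0.59 ± 0.26, adjusted p = 0.0833); without the libraries with keratinocyte transcripts it was (log2 0.58, adjusted p = 0.0121). Lama1 was higher in TEBs at 1632 ± 120.5 than in ducts at 796 ± 396 CPM (1.17 ± 0.44, adjusted p = 0.0452), and all 4 TEB libraries lay above all 4 duct libraries. Its duct level depended on the mouse model, 1128 ± 164 CPM in the Elf5 and 463 ± 8.88 CPM in the PR-cre libraries (n = 2 each), and the change was 0.60 (adjusted p = 0.493) in the Elf5 model and 1.75 (adjusted p = 0.0613) in the PR-cre model. The call for Lama1 was lost when any 1 of the 8 basal libraries was left out, with adjusted p between 0.0733 and 0.119. Agrn passed narrowly, from 1054 ± 85.0 to 1219 ± 85.3 CPM (0.21 ± 0.08, adjusted p = 0.0376), and its call was lost without Elf5-model TEB replicate 1, Elf5-model duct replicate 2, PR-cre duct replicate 2 or PR-cre TEB replicate 2 (adjusted p between 0.057 and 0.087).

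Lamb3, Lama5, Lamb2, Col4a5 and Col4a6 fell in basal TEBs. Lamb3 fell from 924 ± 119 to 376 ± 99.0 CPM (log2 fold change -1.32 ± 0.36, adjusted p = 0.00784), without overlap. Lama3 stood at 1364 ± 88.3 CPM in ducts against 734 ± 153 CPM in TEBs, and its lowest duct library lay above its highest TEB library. Its test over all 24 libraries was not called (-0.91 ± 0.63, adjusted p = 0.272). The fit holds 1 spread per gene for all groups, and the luminal replicates of Lama3 lay as far apart as 1.74 and 64.4 CPM. Without the libraries with keratinocyte transcripts it was -0.92 (adjusted p = 0.00442). Lama5 fell from 746 ± 215 to 416 ± 131 CPM (-0.86 ± 0.16, adjusted p = 0.000281), and Lamb2 from 308 ± 22.9 to 138 ± 33.8 CPM (-1.18 ± 0.10, adjusted p = 8.8e-08). The X-linked neighbours moved together: Col4a5 fell from 903 ± 53.6 to 503 ± 58.8 CPM (-0.85 ± 0.11, adjusted p = 6.46e-06) and Col4a6 from 521 ± 61.5 to 224 ± 26.3 CPM (-1.21 ± 0.16, adjusted p = 1.46e-05). Hspg2 (858 ± 187 CPM in ducts, 788 ± 59.7 CPM in TEBs) and Nid1 (136 ± 19.1 and 188 ± 55.6 CPM) were not called.

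The integrins of basal cells also split between ducts and TEBs. Itga1 was 7.37-fold lower in TEBs (134 ± 22.4 CPM in ducts, 19.7 ± 9.97 CPM in TEBs, log2 fold change -2.88 ± 0.39, adjusted p = 3.17e-05), while its neighbour Itga2 rose from 80.3 ± 7.87 to 141 ± 23.7 CPM (0.80 ± 0.13, adjusted p = 0.000121). Both genes encode collagen-binding alpha subunits that pair with Itgb1, and neither overlapped between tissues. Itgb4 was 3.28-fold lower in TEBs, from 239 ± 107 to 71.7 ± 26.3 CPM (-1.71 ± 0.10, adjusted p = 3.36e-09), and the fall was -1.65 in the Elf5 model and -1.78 in the PR-cre model. Its partner Itga6 was not called (1384 ± 444 CPM in ducts, 1281 ± 46.8 CPM in TEBs, -0.06 ± 0.10, adjusted p = 0.708), and in ducts the Elf5 model had more Itga6 than the PR-cre model. Itga3 rose from 382 ± 74.8 to 490.0 ± 58.8 CPM (0.36 ± 0.11, adjusted p = 0.0124), with overlapping libraries. Itgb8 fell from 60.5 ± 2.37 to 21.4 ± 1.74 CPM (-1.50 ± 0.37, adjusted p = 0.00412), without overlap. Itga9 fell from 190.3 ± 33.1 to 99.9 ± 18.5 CPM (-0.94 ± 0.28, adjusted p = 0.0146). That call was lost without any 1 of 7 of the 8 basal libraries (adjusted p between 0.0507 and 0.0807), the exception being Elf5-model duct replicate 1. Itgb1 was not called, with duct libraries at 1522 ± 61.3 and TEB libraries at 1374 ± 99.1 CPM (-0.15 ± 0.06, adjusted p = 0.0647).

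Some of the low integrins that fell in basal TEBs are known mainly from blood cells, and the summed levels of blood cell markers were lower there too. Itga2b, the platelet integrin subunit, had 13.6, 7.78, 11.0 and 7.60 CPM in basal ducts and 2.69, 1.24, 2.17 and 3.57 CPM in basal TEBs (-2.07 ± 0.27, adjusted p = 1e-05). The summed level of 7 platelet and megakaryocyte markers was between 4.28 and 9.87 CPM in basal ducts and between 1.42 and 2.92 CPM in basal TEBs. Itgb7, a lymphocyte subunit, had 2.49 to 3.73 CPM in basal ducts and 0.493 to 0.899 CPM in basal TEBs (-1.94 ± 0.46, adjusted p = 0.00259). Itgal, another leukocyte subunit, had 0.587 to 1.89 CPM in basal ducts and 0.125 to 0.729 CPM in basal TEBs (-2.21 ± 0.75, adjusted p = 0.0236). The summed level of 15 leukocyte markers was between 16.2 and 44.2 CPM in basal ducts and between 4.24 and 6.51 CPM in basal TEBs, with Ptprc at 0.741 to 7.54 CPM in basal ducts and at most 0.243 CPM in basal TEBs. In luminal cells Itga2b had 2.79 to 7.15 CPM in ducts and 2.64 to 6.34 CPM in TEBs, with platelet and megakaryocyte sums of 0.252 to 2.30 CPM. Itgal had 1.09 to 3.18 CPM in Pgr-high ducts and 1.43 to 2.05 CPM in Pgr-high TEBs. The leukocyte sums there were 4.67 to 9.39 and 2.07 to 3.09 CPM. Elf5-high libraries had 0.0270 to 1.52 CPM of Itgal, with sums of 4.15 to 20.7 CPM. Itgb7 had at most 1.16 CPM in luminal libraries. The part of blood cells in the changes was not tested. Itga7, a laminin receptor subunit of muscle, had 6.73, 9.81, 2.35 and 2.67 CPM in basal ducts and 1.02 to 1.93 CPM in basal TEBs (-1.56 ± 0.48, adjusted p = 0.0145), a call that was lost without Elf5-model TEB replicate 1, Elf5-model duct replicate 2 or PR-cre TEB replicate 2 (adjusted p between 0.0573 and 0.0752).

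**Figure D4:**
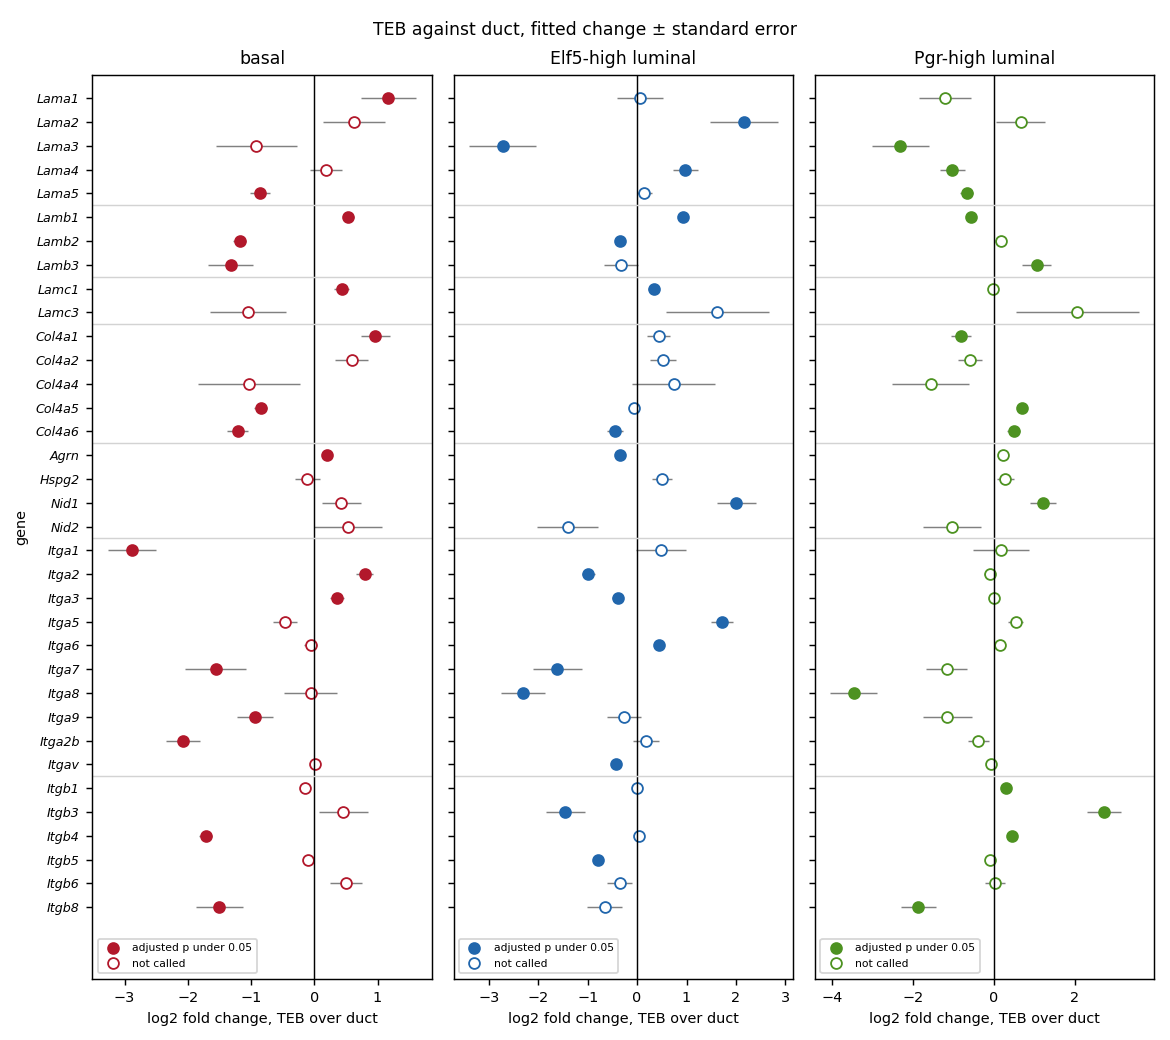
Fitted log2 fold change of TEB over duct with its standard error for the 35 members described by library, in basal, Elf5-high luminal and Pgr-high luminal cells; filled points passed the test and open points did not. In basal cells Itga1 has the most negative value at -2.88, and in Pgr-high cells Itgb3 has the most positive at 2.71.

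In Elf5-high luminal cells Lama4 and Lamb1 rose in TEBs, and Lama3, Itga8, Itgb3 and Itga2 fell. Of 47 members, 7 were higher in TEBs, 12 lower and 28 not called, where 17.4% of all genes were higher and 15.2% lower. The median log2 fold change was 0.04, against 0.02 over all genes. Lama4 rose from 66.2 ± 27.6 to 122 ± 15.2 CPM (0.97 ± 0.25, adjusted p = 0.00837), and Lamb1 from 47.4 ± 19.7 to 84.8 ± 10.2 CPM (0.93 ± 0.09, adjusted p = 1.59e-06). Within the models the rise of Lama4 was 1.38 (adjusted p = 0.0135) in the Elf5 model and 0.57 (adjusted p = 0.3) in the PR-cre model. Lama3 fell 6.61-fold, from 146 ± 46.3 to 21.8 ± 8.01 CPM (-2.73 ± 0.68, adjusted p = 0.00719), and no TEB library reached the lowest duct library. Lamb2 fell from 181 ± 18.8 to 142 ± 11.3 CPM (-0.34 ± 0.10, adjusted p = 0.0127). The call for Lamb2 was lost without GFP-positive TEB replicate 1 (adjusted p = 0.0566). Lamb3 was not called (-0.32 ± 0.35, adjusted p = 0.538). The small rise of Lamc1, from 129 ± 8.77 to 162 ± 5.32 CPM (0.33 ± 0.12, adjusted p = 0.0429), was lost when any 1 of the 8 Elf5-high libraries was left out (adjusted p between 0.0663 and 0.187).

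Of 17 integrin alpha subunits tested 2 rose and 5 fell in Elf5-high TEBs, and of 9 beta subunits 2 fell, where 17.4% of all genes rose and 15.2% fell. Itga8 fell 4.98-fold, from 296 ± 200.1 to 48.6 ± 4.37 CPM (-2.32 ± 0.45, adjusted p = 0.00128), and within the models the change was -3.17 in the Elf5 model and -1.46 in the PR-cre model. Itga2 fell from 71.3 ± 7.61 to 36.6 ± 9.09 CPM (-0.99 ± 0.13, adjusted p = 3.47e-05), in contrast to basal cells, and the groups did not overlap. Itgb3 fell from 102 ± 53.7 to 33.9 ± 4.50 CPM (-1.45 ± 0.40, adjusted p = 0.0124), a call that was lost without GFP-positive TEB replicate 2 (adjusted p = 0.0502). The GFP-positive ducts were the highest libraries, and the change was -2.27 (adjusted p = 0.0123) in the Elf5 model and -0.63 (adjusted p = 0.481) in the PR-cre model. Itgb5, a vitronectin receptor subunit, fell from 131 ± 8.66 to 75.5 ± 3.01 CPM (-0.79 ± 0.08, adjusted p = 2.29e-06), and Itgav from 135 ± 31.4 to 99.2 ± 14.1 CPM (-0.42 ± 0.08, adjusted p = 0.000597). Itga6 rose from 214 ± 27.6 to 289 ± 24.5 CPM (0.43 ± 0.10, adjusted p = 0.00348). Itga5 rose 3.31-fold from a low level (2.30 ± 1.32 to 6.95 ± 1.92 CPM, 1.73 ± 0.22, adjusted p = 3.02e-05), and stayed below every Pgr-high library.

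In Pgr-high luminal cells Itgb3 and Itgb4 rose in TEBs, and Lama5, Itga8 and Itgb8 fell. Of 47 members, 7 were higher, 7 lower and 33 not called, where 13% of all genes were higher and 11.6% lower, with a median of -0.06 against 0 over all genes. Itgb3 rose 6.55-fold, with 4.0, 18.3, 8.89 and 2.79 CPM in ducts and 30.5, 53.5, 85.0 and 49.2 CPM in TEBs (2.71 ± 0.42, adjusted p = 0.000512), and every TEB library lay above every duct library. Itgb4 had 141, 174, 116 and 121 CPM in ducts and 196, 242, 165 and 152 CPM in TEBs (0.45 ± 0.10, adjusted p = 0.00391), with overlap between the models and none within them. Col4a5 rose from 119 ± 39.1 to 189 ± 56.0 CPM (0.68 ± 0.11, adjusted p = 0.000233) and Col4a6 from 58.2 ± 26.1 to 81.6 ± 33.8 CPM (0.49 ± 0.16, adjusted p = 0.033). The call for Col4a6 was lost without YFP-positive duct replicate 1 or 2, YFP-positive TEB replicate 1 or GFP-negative TEB replicate 2 (adjusted p between 0.0502 and 0.146). The direction of this pair was thus opposite to that in basal cells. Lama5 fell from 1467 ± 456 to 919 ± 75.5 CPM (-0.67 ± 0.16, adjusted p = 0.00497), with GFP-negative duct replicate 1 far above the others at 2121 CPM. Itga8 fell from 8.08 ± 6.41 to 0.693 ± 0.567 CPM (-3.46 ± 0.57, adjusted p = 0.000761). Itgb8 fell from 3.82 ± 2.31 to 1.06 ± 0.547 CPM (-1.86 ± 0.44, adjusted p = 0.00645).

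The fall of Lama3 in Pgr-high cells rested on 1 library. Over all libraries it was -2.31 ± 0.70, adjusted p = 0.028. Without GFP-negative duct replicate 2, which holds keratinocyte transcripts, it was -0.18 (adjusted p = 0.861). The same library carried part of the falls of Lama4 (-1.02 ± 0.31, adjusted p = 0.0248) and Col4a1 (-0.81 ± 0.24, adjusted p = 0.0224), which became -0.49 for each without it (adjusted p = 0.227 and 0.135). Each of these 3 calls was also lost without YFP-positive duct replicate 1, YFP-positive TEB replicate 2 or GFP-negative TEB replicate 1 or 2, and that of Lama3 also without YFP-positive TEB replicate 1 (adjusted p between 0.0516 and 0.168). Lamb3 rose (1.06 ± 0.36, adjusted p = 0.0466), although that library held its highest Pgr-high duct level. The call for Lamb3 was lost without YFP-positive duct replicate 1 or 2, YFP-positive TEB replicate 1 or 2, or GFP-negative TEB replicate 1 or 2 (adjusted p between 0.0643 and 0.138).

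Whether a change differed between populations was tested directly. The change from duct to TEB differed between basal and luminal cells for 21 of 47 members, 8 with a higher and 13 with a lower value in basal cells, where 11.4% and 14.9% of all genes were called. Itga1 (-3.22 ± 0.56, adjusted p = 0.000683), Itgb4 (-1.96 ± 0.12, adjusted p = 1.26e-08), Lamb3 (-1.69 ± 0.43, adjusted p = 0.0103) and Col4a6 (-1.24 ± 0.19, adjusted p = 0.00018) fell more, or rose less, in basal cells. Itga2 (1.34 ± 0.16, adjusted p = 1.28e-05), Itga8 (2.83 ± 0.56, adjusted p = 0.00204) and Col4a1 (1.15 ± 0.28, adjusted p = 0.00693) had the higher change in basal cells. The difference between the luminal populations was called for 15 of 47 members, 5 higher and 10 lower in Elf5-high cells, where 4.93% and 5.68% of all genes were called. Itgb3 had the largest of these differences, at -4.16 ± 0.58, adjusted p = 0.000566. It fell in Elf5-high TEBs and rose in Pgr-high TEBs. Lama4 (1.99 ± 0.40, adjusted p = 0.00535) and Lamb1 (1.49 ± 0.14, adjusted p = 4.75e-06) rose in Elf5-high cells and fell in Pgr-high cells.

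To set laminins beside their receptors, levels were divided by exon length (CPM per kb), and the share of each chain among its kind was taken in each library. Transcript shares do not give protein trimers. Among laminin alpha transcripts of basal ducts, Lama3 held 45.3% ± 3.41, Lama1 27.7% ± 10.8 and Lama5 22.9% ± 8.17 (mean ± SD of 4 libraries). In basal TEBs Lama1 led with 58.9% ± 6.87, ahead of Lama3 with 24.1% ± 3.75 and Lama5 with 12.4% ± 3.17. In Elf5-high ducts Lama5 held 52.4% ± 8.34, Lama3 25.1% ± 6.65 and Lama4 19.4% ± 7.09. In Elf5-high TEBs Lama5 held 57.2% ± 8.40, Lama4 36.7% ± 9.03 and Lama3 3.85% ± 1.80. Pgr-high cells had almost only Lama5, with 97.3% ± 3.30 in ducts and 98.9% ± 0.149 in TEBs.

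The shares of the beta chains also differed between tissues and populations. In basal cells Lamb3 held 50.7% ± 4.68 of beta transcripts in ducts and 25.6% ± 4.23 in TEBs, and Lamb1 37.1% ± 4.13 and 67.6% ± 5.15. Pgr-high cells were led by Lamb2, with 79.5% ± 15.5 in ducts and 70.4% ± 7.26 in TEBs.

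**Figure D5:**
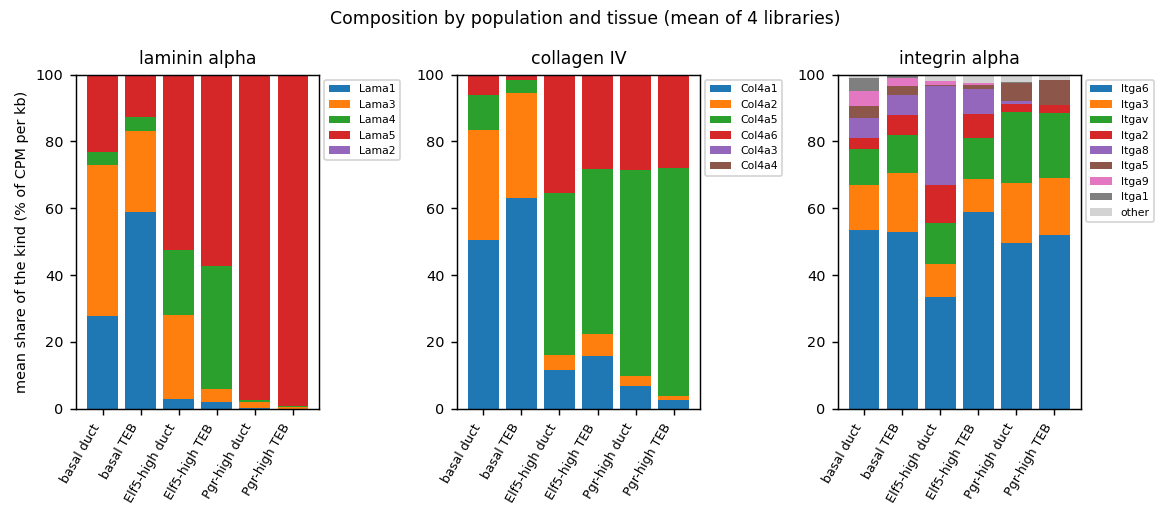
Composition of laminin alpha, collagen IV and integrin alpha transcripts by population and tissue, as the mean share of CPM per kb in 4 libraries, stacked to 100%. In basal cells Lama3 leads in ducts and Lama1 in TEBs, Pgr-high cells hold almost only Lama5, and Itga6 has the largest mean share of integrin alpha transcripts in all 6 columns, except that in Elf5-high ducts Itga8 leads with coding length or without either YFP-negative library.

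The level of the scarcest chain bounds what a trimer's transcripts could supply if all chains were translated alike. For laminin-111 (Lama1, Lamb1, Lamc1) it was 83.6 ± 41.6 CPM per kb in basal ducts and 171 ± 12.7 in basal TEBs, set by Lama1. For laminin-311 (Lama3, Lamb1, Lamc1) it was 132 ± 8.54 in basal ducts and 71.0 ± 14.8 in basal TEBs, set by Lama3, a mean above that of laminin-111 in ducts, where the libraries overlapped, and below it in TEBs. Laminin-511 (Lama5, Lamb1, Lamc1) had 65.5 ± 18.9 in basal ducts and 36.5 ± 11.5 in basal TEBs. These trimers share Lamb1 and Lamc1, and Lama3 is also a chain of laminin-332. Their values draw on the same pools, so they cannot be added and do not rank the trimers made. In luminal cells laminin-521 (Lama5, Lamb2, Lamc1) had the highest value among the trimers set out, at 16.9 ± 1.15 in Elf5-high ducts, 21.3 ± 0.698 in Elf5-high TEBs, 20.9 ± 7.99 in Pgr-high ducts and 19.9 ± 2.68 in Pgr-high TEBs, set by Lamc1 in every luminal library. In Elf5-high cells its lead over the next trimer was within the spread between libraries. Laminin-421 (Lama4, Lamb2, Lamc1) had 11.0 ± 4.57 in Elf5-high ducts and 19.6 ± 1.68 in Elf5-high TEBs, and at most 0.537 ± 0.286 in Pgr-high cells.

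The laminin receptors were set out the same way. For alpha6beta1 the scarcer subunit had 299.6 ± 70.5 CPM per kb in basal ducts and 305 ± 11.1 in basal TEBs. For alpha3beta1 it was 78.8 ± 15.4 and 101 ± 12.1, set by Itga3. For alpha6beta4 it was 38.7 ± 17.3 in basal ducts and 11.6 ± 4.26 in basal TEBs, set by Itgb4. In basal TEBs, then, the hemidesmosome subunit Itgb4 and the laminin-332 chain Lamb3 were both lower than in ducts, while the values of alpha6beta1 and alpha3beta1 were not. In luminal TEBs alpha6beta4 had 21.1 ± 4.38 in Elf5-high and 30.6 ± 6.51 in Pgr-high cells, above basal TEBs. Elf5-high cells had 51.0 ± 6.56 for alpha6beta1 in ducts and 68.6 ± 5.82 in TEBs, and 14.9 ± 2.20 and 11.4 ± 2.47 for alpha3beta1. Pgr-high cells, which carried the most Lama5, had 80.5 ± 12.5 and 88.4 ± 12.3 for alpha6beta1, and 29.1 ± 0.644 and 29.2 ± 1.75 for alpha3beta1.

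The collagen receptors changed places in basal cells. For alpha1beta1 the scarcer subunit, Itga1, had 22.4 ± 3.74 CPM per kb in basal ducts and 3.29 ± 1.67 in basal TEBs, and for alpha2beta1 Itga2 had 19.0 ± 1.87 and 33.3 ± 5.63. In ducts these levels differed by less than the larger SD, and in TEBs alpha2beta1 led by a wide margin. In Elf5-high cells alpha2beta1 had 16.9 ± 1.80 in ducts and 8.68 ± 2.16 in TEBs, and in Pgr-high cells 4.33 ± 0.661 and 4.04 ± 0.574. Among integrin alpha transcripts Itga6 held 53.4% ± 6.98 in basal ducts and 53.0% ± 1.09 in basal TEBs, 33.4% ± 5.42 and 58.9% ± 3.41 in Elf5-high cells, and 49.6% ± 5.24 and 51.9% ± 3.80 in Pgr-high cells. In Elf5-high cells Itga8 held 29.6% ± 13.5 in ducts and 7.24% ± 0.828 in TEBs. In Elf5-high ducts the order of these subunits was not stable: Itga8 led with coding length (33.9% against 26.9% for Itga6) and without YFP-negative duct replicate 1 (33.0% against 32.2%) or replicate 2 (33.9% against 31.5%). Receptors that share Itgb1 draw on the same pool, so these levels cannot be added.

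Other genes of the pathway were described by lists. Hemidesmosome partners of Itgb4 fell in part in basal TEBs: of 4, Plec rose, Dst and Cd151 fell and Col17a1 was not called. Over all genes 20.9% rose and 22.8% fell. Dst, which encodes the hemidesmosome plakin BPAG1 among other isoforms, had 3141 ± 1272 CPM in basal ducts and 666 ± 123 CPM in basal TEBs (log2 fold change -2.17 ± 0.14, adjusted p = 4.48e-09). Cd151, a tetraspanin that binds laminin-binding integrins, had 248 ± 31.1 and 140.0 ± 5.38 CPM (-0.82 ± 0.07, adjusted p = 2.15e-07), and Plec (plectin) 494 ± 81.4 and 774 ± 149.5 CPM (0.63 ± 0.18, adjusted p = 0.0103). The change of Dst and of Cd151 differed between basal and luminal cells, at -1.69 ± 0.16, adjusted p = 9.59e-07 and -0.95 ± 0.09, adjusted p = 9.05e-07.

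Of 37 tested integrin adaptors and kinases, 3 rose and 21 fell in basal TEBs, where 20.9% of all genes rose and 22.8% fell, with a median log2 fold change of -0.51. In Elf5-high TEBs 14 rose and 4 fell (17.4% and 15.2% of all genes), and in Pgr-high TEBs 13 rose and 3 fell (13% and 11.6%), with medians of 0.10 and 0.17. Tns1 (tensin 1), which ties integrins to actin, had the largest fall in basal TEBs at -3.60 ± 0.78, adjusted p = 0.0019, followed by Lims2 (PINCH2), a partner of integrin-linked kinase, at -3.59 ± 0.60, adjusted p = 0.000118. Fblim1 (migfilin) rose most in luminal TEBs, by 2.03 in Elf5-high and 1.88 in Pgr-high cells, and its change differed between basal and luminal cells at -2.77 ± 0.19, adjusted p = 4.16e-08. Flna (filamin A), which binds integrin beta tails, rose by 1.46 and 1.40 in the same luminal cells. The test of the difference was called for 23 of the 37, all lower in basal cells, where 11.4% of all genes were higher and 14.9% lower.

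Of 20 other basement membrane components tested, 14 were higher and 4 lower in basal than in luminal ducts (33.5% and 29.8% of all genes), with a median log2 fold change of 5.86. Sparc, a collagen-binding protein, differed most at 8.88, while Ntn1 (netrin 1) and Npnt (nephronectin, the ligand of alpha8beta1) were lower in basal cells, at -3.33 and -3.08. In basal TEBs 7 rose and 4 fell (20.9% and 22.8% of all genes). Egflam (pikachurin), a ligand of dystroglycan, rose by 2.32 and Fbln1 (fibulin 1) by 1.99, and Papln (papilin) and Ntn4 (netrin 4), which disrupts laminin networks, fell by 3.13 and 3.05 on the log2 scale. Ntn1 separated the luminal populations, higher in Elf5-high ducts by 5.01, and Egflam ran the other way at -4.33.

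Of 17 laminin receptors other than integrins, 3 rose and 5 fell in basal TEBs, with a median of 0.09, shares near the 20.9% and 22.8% of all genes. Bcam, the Lutheran receptor for Lama5, fell at -1.28 ± 0.14, adjusted p = 1.63e-06 in basal TEBs and at -1.12 ± 0.14, adjusted p = 1.54e-05 in Elf5-high TEBs. Sdc4 (syndecan 4) fell at -1.62 ± 0.15, adjusted p = 2.95e-07, and Sdc1 (syndecan 1) rose by 0.65 in basal, 1.61 in Elf5-high and 1.56 in Pgr-high TEBs. Of 22 other integrin ligands, 3 rose and 7 fell in basal TEBs, with a median of -0.70, read against the same 20.9% and 22.8%. In Elf5-high TEBs 7 rose and 2 fell, with a median of 0.19, where 17.4% and 15.2% of all genes did. Vcam1, the ligand of the leukocyte integrin alpha4beta1, fell at -3.98 ± 0.41, adjusted p = 1.15e-06 in basal TEBs, and Fn1 (fibronectin), the ligand of alpha5beta1, rose at 3.11 ± 0.39, adjusted p = 4.37e-05 in Elf5-high TEBs. Of 30 enzymes and chaperones of basement membrane proteins, 12 rose and 5 fell in basal TEBs, with a median of 0.15, read against the same 20.9% and 22.8%. Mmp2, a collagen IV protease, fell at -2.33 ± 0.42, adjusted p = 0.000515, Sulf2, a heparan sulfate endosulfatase, rose at 1.56 ± 0.13, adjusted p = 7.9e-08, and Sulf1, its relative, fell at -1.93 ± 0.16, adjusted p = 7.87e-08.

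Markers of cells outside the gates were read beside these changes. In basal libraries the summed level of 14 endothelial and pericyte markers ranged from 36.1 to 168 CPM in ducts and from 27.3 to 46.2 CPM in TEBs, with Pecam1 at 2.38 to 28.9 and 0.867 to 2.72 CPM. Of the 14, 8 fell and none rose in basal TEBs, where 22.8% of all genes fell and 20.9% rose. The sum of 14 fibroblast markers was between 4089 and 6410 CPM in basal ducts and between 853 and 2040 CPM in basal TEBs, while Pdgfra stood at 12.4 to 22.6 and 15.9 to 23.1 CPM. Postn made up most of that sum in ducts, with 4545 ± 917 CPM there against 345 ± 139 CPM in TEBs, and was the 1 marker that fell. Of the other markers 3 rose and 10 were not called, read against the same shares of all genes, and the median of the 14 was 0.80. The sum of 8 adipocyte markers was between 12.2 and 44.2 CPM in basal ducts and between 3.47 and 8.14 CPM in basal TEBs. In Elf5-high cells, where Lama4 rose in TEBs, endothelial and pericyte markers summed to 280.3 to 417 CPM in ducts and 292 to 320.5 CPM in TEBs, and Pecam1 to at most 6.62 and 3.28 CPM. Notch3 made up most of these sums, with 339.9 ± 64.3 CPM in ducts against 289 ± 13.2 CPM in TEBs. Of the 14 markers 4 rose and none fell there, with a median of 0.59, where 17.4% of all genes rose and 15.2% fell. Among them Flt1 went from 0.324 ± 0.273 to 2.95 ± 1.51 CPM and Pdgfrb from 0.205 ± 0.198 to 1.14 ± 0.697 CPM. Of the 14 fibroblast markers 4 rose and 2 fell in Elf5-high TEBs, with a median of 1.99, read against the same 17.4% and 15.2%. Among them Col3a1 went from 7.09 ± 2.99 to 39.6 ± 29.2 CPM. The markers named here were chosen after their values were seen. The part of these cells in the members' changes was not tested.

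The remaining members were low in every library. Itga4, Itga11, Itgae, Itgam, Itgax, Itgb2 and Itgb2l, most of them subunits known from leukocytes, stayed at or under 2.38, 2.83, 2.00, 0.580, 0.393, 1.32 and 2.04 CPM in that order. Itga10, a collagen receptor subunit of cartilage, lay at 2.80 to 9.16 CPM. Itgad had 9 counts over all libraries. Itgb3bp, which is no integrin, rose in basal TEBs from 5.12 ± 0.572 to 8.53 ± 1.82 CPM (0.74 ± 0.21, adjusted p = 0.00969).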

How the data were processed

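The files hold whole-number counts per gene, deposited by the authors as a table of the series and as single files, which differed in 0 values. The tool featureCounts and the mm10 build are named, per the submitters' processing notes. For the aligner, annotation and strand setting, nothing is given in the sources used here, and per the labels' protocols the TruSeq v2 kit was used, which does not mark strand. The table lists 27179 Entrez identifiers. RefSeq symbols were found for 25275, and the 1904 others held 1.24% of counts.

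Samples were grouped by their titles. No replicates were merged, since chi-square per degree of freedom between them was at least 18 in each group. The software was R 4.3.3 with edgeR 4.0.16, which rests on limma 3.58.1. For the counts, filterByExpr (minimum count 10, minimum total 15) kept 18109 genes, libraries were scaled by TMM, and 1 robust quasi-likelihood model held 12 group means for the 24 libraries, which leaves 12 residual degrees of freedom. Contrasts of group means on the log2 scale were tested by the quasi-likelihood F-test, adjusted by Benjamini-Hochberg over all genes tested. As contrasts average log2 group means, a fold change can differ from the ratio of printed mean levels. Genes with no counts in a compared group can return a p near 1 and count as not called. The script was tested on simulated data. CPM per kb divides CPM by RefSeq exon length.

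The members, the gene lists and the comparisons were chosen with earlier results of these data known. Members with a mean of at least 20 CPM in a group, or called with a log2 fold change of at least 1 and a mean of at least 5 CPM, are described by library (36 of 48 met this rule, of which 1 is not reported here), and of each pathway list the 2 called genes with the largest change in each direction may be named. Alternatives were RLE size factors, DESeq2 1.42.0, no filter, a replicate block, each mouse model alone, fits without the libraries with keratinocyte transcripts or without each library in turn, and coding length for the shares.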

Additional observations from a re-analysis of the deposited data

Results flagged for a closer look

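The change from duct to TEB differed between populations for the members below. Each difference passed its own test, edgeR's interaction contrast over all 24 libraries. Basal cells were compared with the mean of the luminal populations, and the differences below are log2 values, basal minus luminal.

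Among the laminin chains the difference was 1.74 for Lama1, -0.60 for Lama5, 0.36 for Lamb1, -1.09 for Lamb2 and -1.69 for Lamb3. Collagen IV gave 1.15 for Col4a1, -1.16 for Col4a5 and -1.24 for Col4a6. Nid1 differed by -1.18 and Agrn by 0.28. Among integrin alpha subunits the difference was -3.22 for Itga1, 1.34 for Itga2, -1.96 for Itga2b, 0.56 for Itga3, -1.60 for Itga5 and 2.83 for Itga8. Among beta subunits it was -0.30 for Itgb1, -1.96 for Itgb4 and 0.35 for Itgb5. The calls for Lama1, Lama5 and Nid1 were each lost when 15 or more of the libraries were left out one at a time, and those for Agrn, Itgb1 and Lamb1 for 1 to 6 of them.

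Elf5-high minus Pgr-high luminal cells gave a second set of differences. They were 1.99 for Lama4, 0.82 for Lama5, 1.49 for Lamb1 and -0.51 for Lamb2 among laminins, and 1.25 for Col4a1, -0.75 for Col4a5, -0.94 for Col4a6 and -0.57 for Agrn in the rest of the membrane. Among integrins they were -0.89 for Itga2, 1.19 for Itga5, -0.36 for Itgav, -0.29 for Itgb1, -4.16 for Itgb3 and -0.70 for Itgb5. The calls for Lama5, Col4a1, Itgav and Itgb1 were each lost for 9 to 11 libraries left out one at a time, that for Lamb2 for 5 and that for Itga5 for 1, GFP-positive duct replicate 1. Without the pair of libraries with keratinocyte transcripts the difference for Lama3 became -2.88 (adjusted p = 0.000867) and that for Lamb3 -2.34 (adjusted p = 4.06e-07), neither of which was called over all libraries.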

How the results depend on the processing

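Counts of called members moved most when a single mouse model entered a contrast, where each contrast rests on fewer libraries by construction. With the Elf5 model alone, 1 member was lower in basal than in luminal ducts (2 over both models), 1 was higher in basal TEBs (7), 5 were lower in Elf5-high TEBs (12), 11 were higher in Elf5-high than in Pgr-high ducts (17), 3 had a higher TEB change in basal cells (8) and 5 a lower one in Elf5-high cells (10). With the PR-cre model alone, 2 were lower in basal than in luminal TEBs (5), 4 were higher in basal TEBs (7), 4 higher and 7 lower in Elf5-high TEBs (7 and 12), 2 higher and 1 lower in Pgr-high TEBs (7 and 7), and 11 higher in Elf5-high than in Pgr-high TEBs (19). In that model 5 members had a higher and 6 a lower TEB change in basal cells (8 and 13), and 1 a higher and 5 a lower one in Elf5-high cells (5 and 10). Directions turned for 3 called members: Itgb6 in basal against luminal ducts (0.052 in the Elf5 model), Lama5 in basal against luminal TEBs (0.086 in the PR-cre model) and Itgav in the difference between luminal populations (0.0082 in the PR-cre model).

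With RLE size factors, with DESeq2 and without the libraries with keratinocyte transcripts, 1 member was lower in basal ducts in place of 2. Without those libraries 4 members fell in Pgr-high TEBs in place of 7; the cause was not tested. Leaving out each library in turn gave 1 to 2 members lower in basal ducts, 4 to 10 higher and 4 to 10 lower in Pgr-high TEBs, 8 to 17 with a lower TEB change in basal cells and 2 to 7 with a higher one in Elf5-high cells. The call for Lama1 in basal TEBs was lost with RLE (adjusted p = 0.0545), DESeq2 (0.0798) and no filter (0.0559), and that for Agrn with RLE (0.109) and DESeq2 (0.0846). With coding length in place of exon length, Itga6 held 45.2% of integrin alpha transcripts in basal ducts and 45.6% in basal TEBs, 26.9% and 51.5% in Elf5-high ducts and TEBs (in these ducts Itga8 led with 33.9%), and 41.3% and 43.8% in Pgr-high ducts and TEBs.

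The replicate numbers were checked for pairing by the correlation of same-numbered libraries' deviations between the groups of a model. It ran from 0.0105 to 0.152 over 15 pairs of groups in the Elf5 model and from 0.00337 to 0.102 in the PR-cre model. All values were small and positive, so they do not exclude that the numbers pair samples. The main fit did not pair them. With a replicate block, 3 of 208 calls of named members were lost: Lama1 in basal TEBs (log2 1.17, adjusted p = 0.06), Lama1 between basal and luminal cells (1.75, 0.0599) and Lamb3 in Pgr-high TEBs (1.11, 0.0569).

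Depth limits the low members: Itga7, Itga2b, Nid2, Lamc3 and Lama2 had at most 600 counts in any library, and Nid2, Lamc3 and Lama2 none in some, so that counting error is a larger part of their spread. Groups of 2 leave the estimate of spread to the model over all groups.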
